A study of Mus musculus with 30 samples.

Results

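The comparison described here sets the livers of vehicle-treated mice with hepatocellular carcinoma (HCC) and fibrosis, fed CD-HFD (high in fat and deficient in choline), against the livers of healthy mice on control chow. It uses 9 arrays of the 30 in the series: 4 mice with HCC (Veh_high_798, Veh_high_1770, Veh_high_1831 and Veh_high_2088) and 5 chow mice (Hlth_1798, Hlth_1804, Hlth_1965, Hlth_1968 and Hlth_1807), chosen by their titles. Values per mouse are listed in this order throughout. The chow mice are also labelled as given vehicle. The remaining 21 mice were all on CD-HFD: 5 were given vehicle and are titled as without HCC, 10 were given sulindac and 6 were given aspirin with clopidogrel. Every array measured RNA from fresh-frozen liver tissue outside tumours, 1 array per mouse. The labels used here give no strain, sex, age, batch or time of collection, and refer to an earlier publication for how the animals were kept.

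A diet that lacks choline and is rich in fat limits the export of lipid from hepatocytes as very-low-density lipoprotein, and fat accumulates in the liver. Over months, mice on such diets develop steatohepatitis with immune infiltration and fibrosis, and a share of them develop HCC, as in human nonalcoholic steatohepatitis. In steatotic liver the nuclear receptor PPAR-gamma, low in normal hepatocytes, is known to drive lipid uptake and storage genes, while interferons, acute phase cytokines and the hepatocyte clock change much of the remaining transcriptome.

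The tissue was liver in every array. The 5 hepatocyte markers (Alb, Ttr, Apoa1, Serpina1a and Cps1) averaged 12.99 to 13.13 on the log2 intensity scale over the 9 mice, and no marker passed the test. Markers of T or NK cells, platelets, pancreas and skeletal muscle averaged under 5 in all 9 mice, near the lowest probe values of the arrays. The oncofetal gene Afp lay between 4.75 and 4.94 in the mice with HCC and between 4.64 and 5.08 in the chow mice, so this marker of tumour tissue was not raised above the dim range.

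The chow mice Hlth_1798 and Hlth_1807 stood apart from the other 3. Over the brighter genes, each lay nearer to the mean of the mice with HCC than to the mean of its own group, at root-mean-square distances of 0.43 against 0.55 for Hlth_1798 and 0.45 against 0.53 for Hlth_1807. The other 7 mice lay nearer to their own group. For mouse Veh_high_1831 with HCC the distances were almost equal, 0.3855 to its own group and 0.3896 to the chow mean. Mouse Hlth_1807 had the cholangiocyte markers Epcam at 8.11 and Krt19 at 6.03 and the neutrophil marker S100a8 at 8.75, each above every other chow mouse. Mouse Hlth_1798 had the highest score for macrophage genes of the 9. Both were kept as labelled, and values without both are given where the call or the size changes. Both were singled out on these same arrays, by their nearness to the mice with HCC. Leaving such chow mice out favours wider differences between the groups and a narrower spread among the chow mice. Calls and adjusted p-values without both are therefore not independent of that choice. They show how far the results hang on these mice, and are not separate evidence of a difference.

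**Figure D1:**
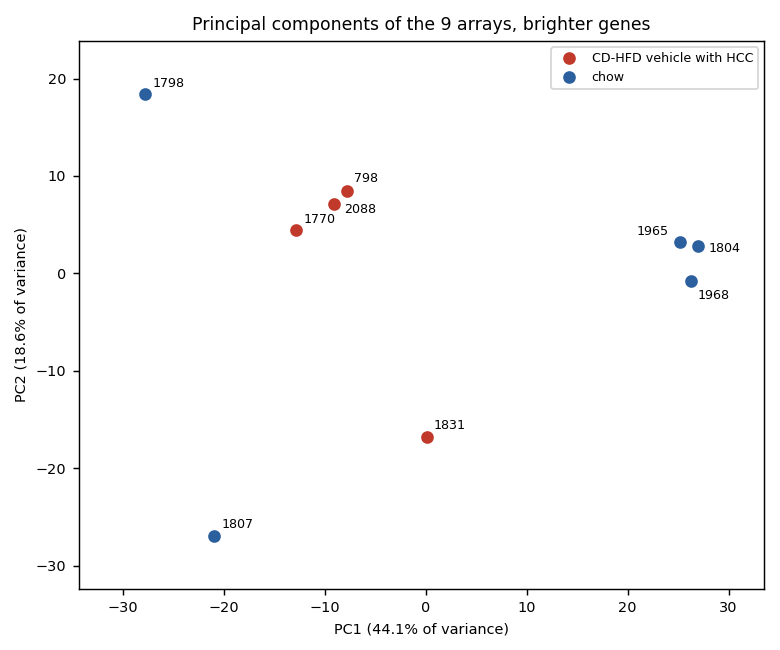
Principal components of the 9 arrays, computed over the genes at or above the median gene mean. PC1 (x axis, 44.1% of variance) and PC2 (y axis, 18.6% of variance) are in log2 units, each point is 1 mouse, red for mice with HCC and blue for chow mice, labelled by animal number. Chow mice Hlth_1804, Hlth_1965 and Hlth_1968 lie together at the right, at PC1 of 25.22 to 26.98, while chow mice Hlth_1798 and Hlth_1807 lie at -27.79 and -20.96, on the other side of the mice with HCC.

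In limma's moderated test with Benjamini-Hochberg adjustment over 17097 genes, 17 genes (0.0994%) passed an adjusted p under 0.05, 5 higher (0.0292%) and 12 lower (0.0702%) in the mice with HCC, and 15 of them had no overlap between the groups. With each array centred on its 75th percentile the split turned to 15 higher and 9 lower. At an unadjusted p under 0.05 there were 1584 genes (9.26%), against 855 that the threshold lets through where no gene differs, and the median difference over all genes was -0.001 on the log2 scale. A total of 454 genes (2.66%) had no overlap between the groups. The labels name separate animals. The p-values rest on a spread between mice that was pooled over all 5 groups of the series, treated mice included, and not on these 9 mice alone. With only these 9 mice fitted, 1 gene passed in limma.

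The count moved with single mice. It was higher without the chow mice that stand apart: without Hlth_1798 it was 110 genes, without Hlth_1807 it was 106, and without both it was 727 (4.25%), of which 362 were higher (2.12%) and 365 lower (2.13%). All 17 genes stayed among the 727. It was lower without others: without mouse Veh_high_2088 with HCC, or without chow mouse Hlth_1968, a single gene remained, Kitl. Without chow mouse Hlth_1804 or Hlth_1965, 3 genes passed in each case, and without mouse Veh_high_1770 with HCC, 9 passed. Without mice Veh_high_1831 and Veh_high_2088 with HCC together, no gene passed in limma and 1293 genes had an unadjusted p under 0.05.

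Kitl, which encodes stem cell factor, the ligand of the receptor Kit on mast cells and haematopoietic progenitors, had the smallest p of all genes. Its log2 intensity was 5.19, 5.11, 5.00 and 4.97 in the mice with HCC, against 5.65, 5.81, 6.38, 5.71 and 6.29 in the chow mice. All 4 mice with HCC lay below all 5 chow mice. The log2 difference was -0.90 (SE 0.11, adjusted p = 0.00025), a fold change of 0.535, and all 4 of its probe sets gave the same direction. With only these 9 mice fitted in limma, Kitl did not pass (adjusted p = 0.21). It alone of the 17 genes passed with each of the 9 mice left out in turn, while Cry1 and Ncbp2 lost their call without Veh_high_2088 or without Hlth_1968 and the other 14 genes passed in 2 to 4 of the 9 cases. In RNA from whole tissue, fewer cells of a type and less RNA per cell cannot be told apart. Its median was 5.38 in mice given sulindac and 5.33 in mice given aspirin with clopidogrel.

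Cry1, the clock repressor that binds CLOCK and BMAL1 at E-box elements, fell furthest. It had 6.76, 6.35, 5.51 and 5.55 in the mice with HCC, against 8.33, 8.21, 8.15, 8.28 and 8.58 in the chow mice. The chow mice were tightly grouped, and the 4 mice with HCC lay well below them, lowest in Veh_high_1831 and Veh_high_2088. The difference was -2.27 (SE 0.38, adjusted p = 0.012), a fold change of 0.208. Low Cry1 was not particular to the mice with HCC: its median was 5.56 in mice given sulindac and 6.17 in mice given aspirin with clopidogrel. Lonrf3, a RING finger protein with a LON protease domain, had 5.81, 6.18, 5.45 and 5.27 in the mice with HCC, against 6.77, 6.76, 6.82, 6.61 and 7.35 in the chow mice. It fell by 1.18 (SE 0.23, adjusted p = 0.036), with no overlap. The medians of Lonrf3 were 5.54 with sulindac and 5.66 with aspirin and clopidogrel.

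Promoter sequence was in RefSeq's table (build GRCm38.p6) for 12 of the 17 genes, and Cry1 and Lonrf3 were the only 2 of these with the E-box CACGTG in the 250 bases before the start. Of the 32851 promoters in the table, 6.02% hold it, and 6.86% of genes have it in at least 1 promoter. Another sequence searched, AGGTCA, was in 6 of the 12, and in 15.8% of genes. The E-box, a palindrome, is in capitals in both sequences, shown because the clock repressor and the RING finger gene fell together. The Cry1 promoter is chr10:85185055-85185304 on the minus strand, with the E-box beginning 60 bases before the start, and the Lonrf3 promoter is chrX:36328159-36328408 on the plus strand, with the E-box 45 bases before the start. A match is a description of the letters and not of binding.
Cry1: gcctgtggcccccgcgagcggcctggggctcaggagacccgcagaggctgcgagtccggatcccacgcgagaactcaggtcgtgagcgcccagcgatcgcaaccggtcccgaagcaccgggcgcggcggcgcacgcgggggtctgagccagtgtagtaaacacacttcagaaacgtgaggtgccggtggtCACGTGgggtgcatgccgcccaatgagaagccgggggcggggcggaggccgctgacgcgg
Lonrf3: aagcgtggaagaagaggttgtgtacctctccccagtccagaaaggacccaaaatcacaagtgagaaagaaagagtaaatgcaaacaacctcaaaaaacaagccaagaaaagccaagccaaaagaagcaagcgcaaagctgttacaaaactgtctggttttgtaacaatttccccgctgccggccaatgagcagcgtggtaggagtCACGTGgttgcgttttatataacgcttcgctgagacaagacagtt

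3 further genes of transcription and the nucleus fell. Zbtb16, a zinc finger transcription factor also known as PLZF, had 5.02, 5.41, 5.22 and 5.00 in the mice with HCC, against 5.60, 7.62, 6.42, 7.70 and 7.35 in the chow mice. The chow mice spread widely and Hlth_1798 came close to the HCC group (difference -1.78, SE 0.36, adjusted p = 0.044). Medians of Zbtb16 were 5.57 with sulindac and 5.35 with aspirin and clopidogrel. Atxn1, a chromatin-associated partner of the repressor Capicua, had 6.31, 6.01, 6.05 and 5.62 in the mice with HCC, against 6.43, 6.89, 7.06, 6.85 and 6.97 in the chow mice. It fell by 0.85 (SE 0.15, adjusted p = 0.025), although only 2 of its 3 probe sets gave that direction. Ahctf1, the nucleoporin ELYS needed for nuclear pore assembly, had 7.66, 7.36, 6.86 and 6.61 in the mice with HCC, against 7.74, 8.02, 8.17, 8.14 and 7.87 in the chow mice. Its lowest values were again in Veh_high_1831 and Veh_high_2088, and it fell by 0.86 (SE 0.18, adjusted p = 0.044). Medians of Ahctf1 were 7.07 with sulindac and 7.71 with aspirin and clopidogrel.

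Ncbp2, a subunit of the nuclear cap-binding complex on new transcripts, showed a small and even change. Its values were 7.34, 7.35, 7.20 and 7.01 in the mice with HCC, against 7.68, 7.75, 7.63, 7.80 and 7.71 in the chow mice. The groups did not overlap, all 3 probe sets agreed in direction, and the difference was -0.49 (SE 0.08, adjusted p = 0.012).

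Pparg, the nuclear receptor named above, rose. It had 7.21, 7.59, 8.31 and 8.14 in the mice with HCC, against 6.68, 6.59, 6.80, 6.24 and 6.96 in the chow mice. Every mouse with HCC was above every chow mouse, by the widest margin in Veh_high_1831 and Veh_high_2088 (difference 1.16, SE 0.22, adjusted p = 0.036, fold change 2.23). The medians were 6.93 in mice given sulindac and 6.26 in mice given aspirin with clopidogrel, on the same diet.

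The other genes that rose were of mixed kinds. Mmd2, a membrane protein of the progestin and adipoQ receptor family, had 6.89, 7.10, 7.29 and 7.52 in the mice with HCC, against 5.48, 5.09, 5.14, 5.11 and 5.34 in the chow mice, with no overlap. Its difference was 1.97 (SE 0.39, adjusted p = 0.044), and it was the single gene that passed when only these 9 mice were fitted. St6gal1, the sialyltransferase that caps N-glycans of liver glycoproteins, had 9.92, 9.97, 9.52 and 9.62 in the mice with HCC, against 9.70, 8.76, 8.30, 8.60 and 8.52 in the chow mice. Only chow mouse Hlth_1798 lay inside the HCC range, and the gene rose by 0.98 (SE 0.17, adjusted p = 0.024). Gm32461 rose by 0.77 (SE 0.15, adjusted p = 0.044). Iigp1, an interferon-induced GTPase, was bright in all mice, at 11.38 to 11.75 with HCC and 11.02 to 11.36 in chow mice, and rose by 0.33 (SE 0.07, adjusted p = 0.044).

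5 further genes fell. Slc45a3, a solute carrier, had 7.23, 7.66, 6.21 and 6.39 in the mice with HCC, against 7.71, 8.08, 8.07, 8.87 and 8.13 in the chow mice. The groups were separated by a narrow gap between mouse Veh_high_1770 with HCC and chow mouse Hlth_1798 (difference -1.30, SE 0.26, adjusted p = 0.044). Slc12a2, the sodium, potassium and chloride cotransporter NKCC1, fell by 0.72 (SE 0.15, adjusted p = 0.044), with chow mouse Hlth_1798 at 6.36 inside the HCC range. Fam234b had 5.95, 5.57, 6.03 and 5.88 in the mice with HCC, against 6.20, 7.21, 7.18, 7.30 and 6.44 in the chow mice, in which Hlth_1798 and Hlth_1807 were the lowest. It fell by 1.01 (adjusted p = 0.036), and Rusc2, a Rab-binding adaptor, by 0.55 (adjusted p = 0.044). Manba, the lysosomal beta-mannosidase, had 7.49, 7.37, 7.47 and 7.66 in the mice with HCC, against 8.01, 7.94, 8.19, 7.75 and 8.15 in the chow mice, and fell by 0.51 (adjusted p = 0.048). Just outside the threshold were Gbp10, a guanylate-binding protein, at a difference of 1.72 (adjusted p = 0.055), Lad1 at -0.54 (adjusted p = 0.055) and the glutathione transferase Gsta4 at -0.83 (adjusted p = 0.060). All 3 passed without chow mice Hlth_1798 and Hlth_1807 (adjusted p = 0.0034 for Gbp10, 0.024 for Lad1 and 0.018 for Gsta4).

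**Figure D2:**
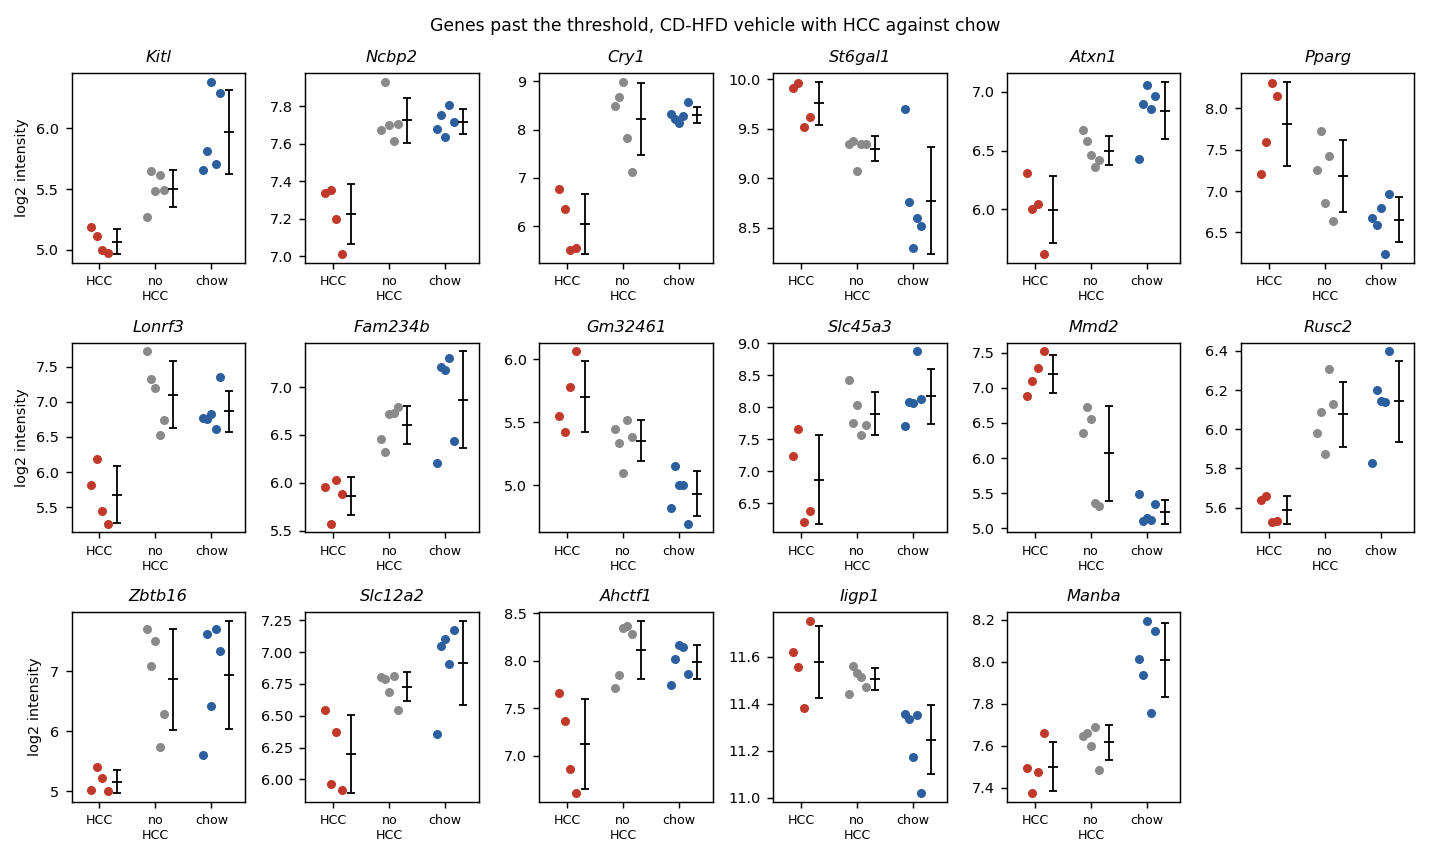
Log2 intensity (y axes, scaled per gene) of the 17 genes past the threshold in each mouse, with HCC (red, 4), on CD-HFD with vehicle and without HCC (grey, 5) and on chow (blue, 5). Bars give the mean and SD of each group. Kitl lies at 4.97 to 5.19 with HCC, below the chow range of 5.65 to 6.38. Cry1 in every mouse with HCC lies below both other groups shown, the nearest of which is mouse Veh_low_1819 without HCC at 7.12. Mice given sulindac or aspirin with clopidogrel are not shown.

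The contrast between mice with and without HCC on the same diet, in which the chow mice cancel, passed for 4 of the 17 genes (0.0877% of all genes passed): Cry1 (difference -2.18, adjusted p = 0.019), Lonrf3 (-1.42, adjusted p = 0.014), Ncbp2 (-0.50, adjusted p = 0.014) and Ahctf1 (-0.99, adjusted p = 0.019). The 17 genes were chosen on the same 4 mice with HCC that form 1 side of this contrast, so the share of them that passed is not independent of that choice and nothing is read from it. For Kitl the difference from chow was -0.90 with HCC and -0.47 without HCC, for Manba -0.51 and -0.39, for Iigp1 0.33 and 0.26, and for Pparg 1.16 and 0.53. These pairs share the chow mice. For none of these 4 did the contrast between the groups on the diet pass (adjusted p = 0.16 for Kitl, 0.83 for Manba, 0.82 for Iigp1 and 0.34 for Pparg).

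Among genes of lipid uptake and storage, Pparg was 1 of 20 measured members of its list past the threshold. At an unadjusted p under 0.05, 4 of 20 were higher and none lower, against 4.45% higher and 4.82% lower over all genes, and 16 lay above 0 (49.5% of all genes did). The median was 0.09 and was 0.27 without chow mice Hlth_1798 and Hlth_1807. Mogat1, the monoacylglycerol acyltransferase induced by PPAR-gamma, had 5.84, 5.84, 6.68 and 5.68 with HCC, against 4.89, 4.98, 4.95, 4.71 and 5.38 in chow mice, with no overlap but an adjusted p of 0.39. Fabp4, the fatty acid carrier of adipocytes and macrophages, differed by 1.16 (adjusted p = 0.50), with 9.62, 8.86, 8.20 and 9.08 with HCC, against 9.20, 6.82, 7.20, 6.91 and 8.76 in chow mice. The 2 high chow values were those of Hlth_1798 and Hlth_1807, and without them the difference was 1.96 (adjusted p = 0.032). The droplet coat genes differed in sign: Plin2, which coats most hepatic droplets, was 0.35 higher and Plin5, which ties droplets to mitochondria, 0.73 lower, neither past the threshold. Without both chow mice Plin2 was 0.59 higher (adjusted p = 0.001) and Plin5 did not pass.

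Genes that lengthen and desaturate polyunsaturated fatty acids were higher in the mice with HCC without passing the test. Fads2, the first desaturase of the pathway, had 11.21, 11.26, 10.94 and 11.49 with HCC, against 10.23, 10.50, 10.59, 10.66 and 10.47 in chow mice. Fads1 and the elongase Elovl2 were also without overlap, at differences of 0.41 each (adjusted p = 0.37 for Fads1 and 0.12 for Elovl2), and Elovl5 differed by 0.42. Without chow mice Hlth_1798 and Hlth_1807 Fads1 differed by 0.28, and Elovl5, at 0.57, was the one of these that passed (adjusted p = 0.036). Over the 21 measured lipogenic genes 4 were higher (4.45% of all genes) and 2 lower (4.82%) at an unadjusted p under 0.05, and 16 lay above 0. The median was 0.32, and 0.20 without these 2 chow mice. Elovl3, the elongase of saturated and monounsaturated chains, differed by -1.35 (adjusted p = 0.52). Of 20 cholesterol genes 1 was higher and none lower at an unadjusted p under 0.05, against 4.45% and 4.82% of all genes, and 17 lay above 0. Their median was 0.28, and 0.14 without Hlth_1798 and Hlth_1807, when none passed the adjusted threshold. At an unadjusted p under 0.05, none was then higher and 3 were lower (2878 of all 17097 genes in either direction). Against mice without HCC, 11 of these 20 were higher (3.34% of all genes) and none lower (5.53%) at an unadjusted p under 0.05. The mice without HCC themselves lay below chow for these genes, at a median of -0.35. In them, none was higher (3.35% of all genes) and 3 were lower (1.97%) at that level. Of 34 genes of PPAR-alpha and fatty acid oxidation, 2 were lower at an unadjusted p under 0.05 and none higher, near the 4.82% of all genes that were lower. They were the acyl-CoA thioesterases Acot1 (-1.80, adjusted p = 0.36) and Acot2 (-1.56, adjusted p = 0.48). Without Hlth_1798, the lowest chow mouse for both, and Hlth_1807 they differed by -2.72 (adjusted p = 0.014) and -2.43 (adjusted p = 0.032). These are close paralogs whose probes may share signal.

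Interferon genes lay on the higher side in the mice with HCC. Of 33 measured type I interferon genes, 15 were higher and none lower at an unadjusted p under 0.05 (4.45% of all genes were higher), 32 lay above 0 and the median was 0.40. None passed the adjusted threshold with all 9 mice, and 12 did without chow mice Hlth_1798 and Hlth_1807 (2.12% of all genes), when the median was 0.59. In mice on the diet without HCC, which share the chow mice, 4 of the 33 were higher (3.35% of all genes) and none lower (1.97%), and the median was 0.18. Usp18, the protease that removes ISG15 and dampens interferon receptor signalling, had 7.99, 7.56, 7.28 and 7.42 with HCC, against 7.0, 5.70, 5.78, 6.14 and 6.97 in chow mice. All mice with HCC were higher, and the 2 highest chow mice were Hlth_1798 and Hlth_1807 (difference 1.24, SE 0.36, adjusted p = 0.20, and 1.69, adjusted p = 0.012, without both). Irf9, the DNA-binding subunit of the interferon-stimulated factor, also showed no overlap (0.40, adjusted p = 0.27). The RNA sensor Ifih1 differed by 0.79 and Xaf1 by 0.89 (adjusted p = 0.21 each). Both passed without these 2 chow mice, Ifih1 at 0.94 (adjusted p = 0.040) and Xaf1 at 1.18 (adjusted p = 0.018).

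Of 28 genes of the interferon-gamma response and MHC class I, 14 were higher (4.45% of all genes) and none lower (4.82%) at an unadjusted p under 0.05, Iigp1 among them past the threshold, and the median was 0.29. Without chow mice Hlth_1798 and Hlth_1807, 5 passed, all higher (2.12% of all genes), and the median was 0.46. The groups did not overlap for 5 of them, against 1.49% of all genes without overlap above. H2-T23, a non-classical class I gene, had 11.51, 11.56, 11.66 and 11.68 with HCC, against 11.43, 11.25, 11.19, 11.32 and 11.29 in chow mice (difference 0.31, adjusted p = 0.12, and 0.35, adjusted p = 0.022, without Hlth_1798 and Hlth_1807), with only 1 of its 2 probe sets in that direction. Cxcl9, the T cell chemokine induced by interferon-gamma, had 8.51, 9.41, 9.13 and 10.77 with HCC, against 8.69, 7.58, 7.78, 7.45 and 7.83 in chow mice, highest in mouse Veh_high_2088 (difference 1.59, adjusted p = 0.22). Psmb9, an immunoproteasome subunit, and Gbp7, both named after their values were seen, differed by 1.0 and 0.91. Probes of the class I, guanylate-binding and immunity-related GTPase families may share signal between paralogs. The 5 T or NK cell markers averaged 4.64 to 4.94 with HCC and 4.58 to 4.77 in chow mice. Of 32 T and NK cell genes, none was at an unadjusted p under 0.05. Their part in the interferon values was not tested.

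The interferon-stimulated response element, searched as GAAA, any 2 bases and GAAA on either strand, was in the 250 bases before the start of 8 of the 12 interferon-gamma members with a promoter in the table, out of the 14 above. It was in 3 of the 10 type I members with a promoter, out of 15. Of the 32851 promoters 2.98% hold it, and 3.46% of genes have it in at least 1 promoter. The gamma-activated site TTCNNNGAA was in 4 and 1 of these members, in 7.02% of promoters and in 8.13% of genes. AGGTCA was in 7 of the 12 and 3 of the 10, and in 15.8% of genes. The 3 promoters below are shown as the interferon-stimulated response element lies near the start in each, in capitals, read on the minus strand in Gbp7 and Ifit3. Irgm2, an immunity-related GTPase, is at chr11:58214727-58214976, plus strand, with the element 64 bases before the start. Gbp7 is at chr3:142530086-142530335, plus strand, with the element 53 bases before the start. Ifit3, which binds foreign RNA with other IFIT proteins and was chosen after its values were seen, is at chr19:34583279-34583528, plus strand, with elements 156 and 122 bases before the start. Irgm2 differed by 0.75 (adjusted p = 0.14) and Ifit3 by 1.33 (adjusted p = 0.27, and 0.021 at a difference of 1.88 without Hlth_1798 and Hlth_1807).
Irgm2: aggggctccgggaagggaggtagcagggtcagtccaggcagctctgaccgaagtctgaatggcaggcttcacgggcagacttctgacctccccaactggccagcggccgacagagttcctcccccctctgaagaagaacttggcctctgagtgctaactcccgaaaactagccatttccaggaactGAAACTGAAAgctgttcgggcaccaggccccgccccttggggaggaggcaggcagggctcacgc
Gbp7: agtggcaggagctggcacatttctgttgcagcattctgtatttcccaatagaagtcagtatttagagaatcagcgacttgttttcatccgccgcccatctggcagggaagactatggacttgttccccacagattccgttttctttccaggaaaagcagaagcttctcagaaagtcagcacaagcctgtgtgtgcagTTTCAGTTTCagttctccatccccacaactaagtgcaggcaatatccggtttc
Ifit3: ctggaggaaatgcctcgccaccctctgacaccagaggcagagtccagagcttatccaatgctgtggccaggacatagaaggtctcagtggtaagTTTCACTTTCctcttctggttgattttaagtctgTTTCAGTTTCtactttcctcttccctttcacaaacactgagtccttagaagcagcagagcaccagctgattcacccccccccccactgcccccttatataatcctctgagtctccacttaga

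**Figure D3:**
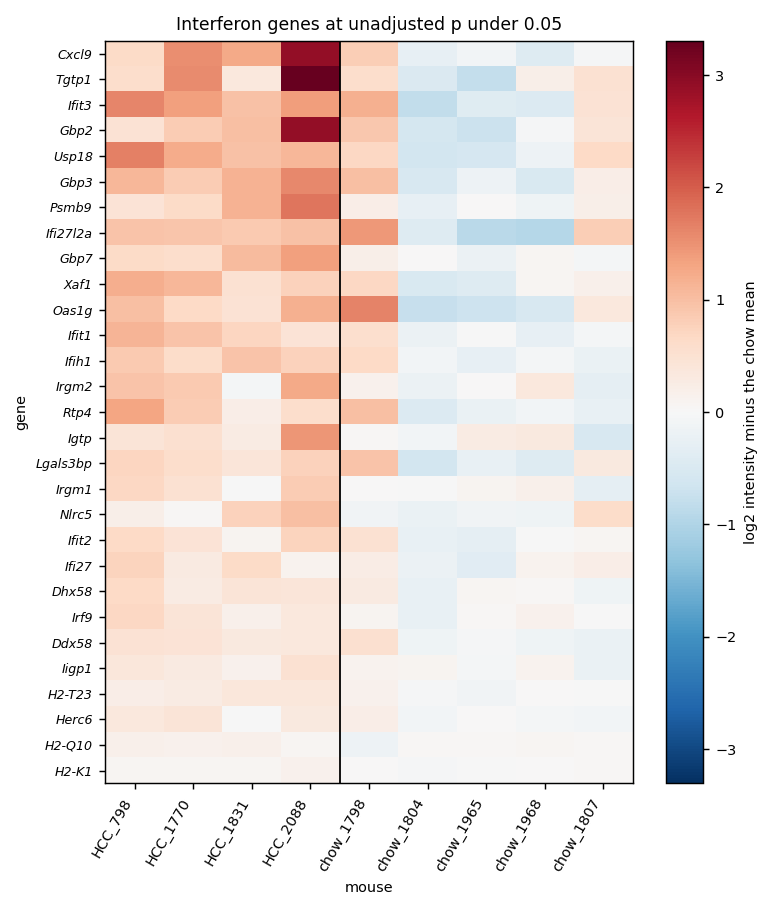
Interferon genes at an unadjusted p under 0.05 (rows, ordered by difference) in each mouse (columns, mice with HCC at the left of the line, chow mice at the right). Colour is log2 intensity minus the chow mean. Chow mouse Hlth_1798 shares the raised values of many type I genes, such as Ifit3 at 7.34 against 5.34 to 6.62 in the other chow mice.

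MHC class II, macrophage and matrix genes were divided by the 2 chow mice that stood apart. The score of the 11 MHC class II genes (mean log2 relative to the chow mean) was 0.18, 0.38, 0.07 and 0.87 with HCC, against 1.02, -0.43, -0.63, -0.64 and 0.68 in chow mice. Mouse Hlth_1798 lay above all mice with HCC. The 5 monocyte or macrophage markers averaged 5.88 to 7.24 with HCC and 5.62 to 7.89 in chow mice, and their part in the MHC class II values was not tested. No member was at an unadjusted p under 0.05 with all 9 mice, and 7 of 11 were past the adjusted threshold without Hlth_1798 and Hlth_1807 (2.12% of all genes), with a median of 1.0 in place of 0.35. Macrophage and monocyte genes gave a median of 0.25 over 29 genes and 0.90 without both, with 7 past the threshold, and the median turned to -0.04 without mouse Veh_high_2088 with HCC and to -0.01 without chow mouse Hlth_1968. Mpeg1, the pore-forming macrophage protein perforin-2, had 10.56, 10.62, 10.60 and 10.80 with HCC, against 11.14, 8.90, 8.76, 8.80 and 10.29 in chow mice. Only Hlth_1798 was above the mice with HCC (difference 1.07, adjusted p = 0.31, and 1.83, adjusted p = 0.00092, without Hlth_1798 and Hlth_1807).

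Collagen and matrix genes had a median of 0.06 over 40 genes, and 0.38 with 10 past the threshold without Hlth_1798 and Hlth_1807. Mouse Hlth_1807 had the highest matrix score of the 9, 1.12, against -0.03 to 0.30 with HCC. The 5 stellate cell markers averaged 7.02 to 7.45 with HCC and 6.64 to 7.26 in chow mice, and their part in the matrix values was not tested. Col14a1, a fibril-associated collagen, had 9.05, 9.21, 9.10 and 9.27 with HCC, against 9.02, 7.77, 7.88, 7.93 and 9.39 in chow mice. Its difference was 0.76 (adjusted p = 0.37), and 1.30 (adjusted p = 0.0031) without both. The basement membrane gene Col4a1 differed by 1.10 (adjusted p = 0.49) with all 9 mice and by 2.24 (adjusted p = 0.00046) without both. Col1a1, the main fibrillar collagen of scar tissue, was dim throughout, at 4.45 to 4.59 with HCC and 4.31 to 5.13 in chow mice, and the mice with HCC are labelled as having fibrosis. Of 27 stellate cell and myofibroblast genes, 3 were higher (4.45% of all genes) and none lower (4.82%) at an unadjusted p under 0.05, with Colec11 at 0.56. Without Hlth_1798 and Hlth_1807, 5 passed the adjusted threshold, Colec11 among them at 0.89 (adjusted p = 0.022), and the median was 0.16 in place of 0.08. Of 16 resident Kupffer cell genes, none was higher and 2 were lower at an unadjusted p under 0.05 (4.82% of all genes were lower).

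Acute phase genes, secreted by hepatocytes under interleukin-6, followed the same division. Of 26 measured, 6 were higher (4.45% of all genes) and 2 lower (4.82%) at an unadjusted p under 0.05, and none passed the threshold. Without Hlth_1798 and Hlth_1807, 7 passed higher (2.12%) and 1 lower (2.13%), and the median was 0.23 in place of 0.15. Saa2 had 11.91, 11.41, 11.91 and 11.73 with HCC, against 11.46, 9.53, 9.20, 9.40 and 11.60 in chow mice. The chow mice Hlth_1798 and Hlth_1807 were at the level of the mice with HCC. The difference was 1.5 (adjusted p = 0.21), or 2.36 (adjusted p = 0.0009) without both. Its close paralog Saa1 differed by 1.33, Orm2 by 1.55, the pentraxin Apcs by 0.52 and the siderophore-binding protein Lcn2 by 2.70. Without both chow mice all 4 passed, Saa1 at 2.14 (adjusted p = 0.0011), Orm2 at 2.51 (adjusted p = 0.015), Apcs at 0.82 (adjusted p = 0.011) and Lcn2 at 4.86 (adjusted p = 0.0056). Lcn2 had 9.65, 10.35, 10.66 and 10.44 with HCC, against 11.23, 5.00, 4.78, 6.48 and 10.41 in chow mice.

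**Figure D4:**
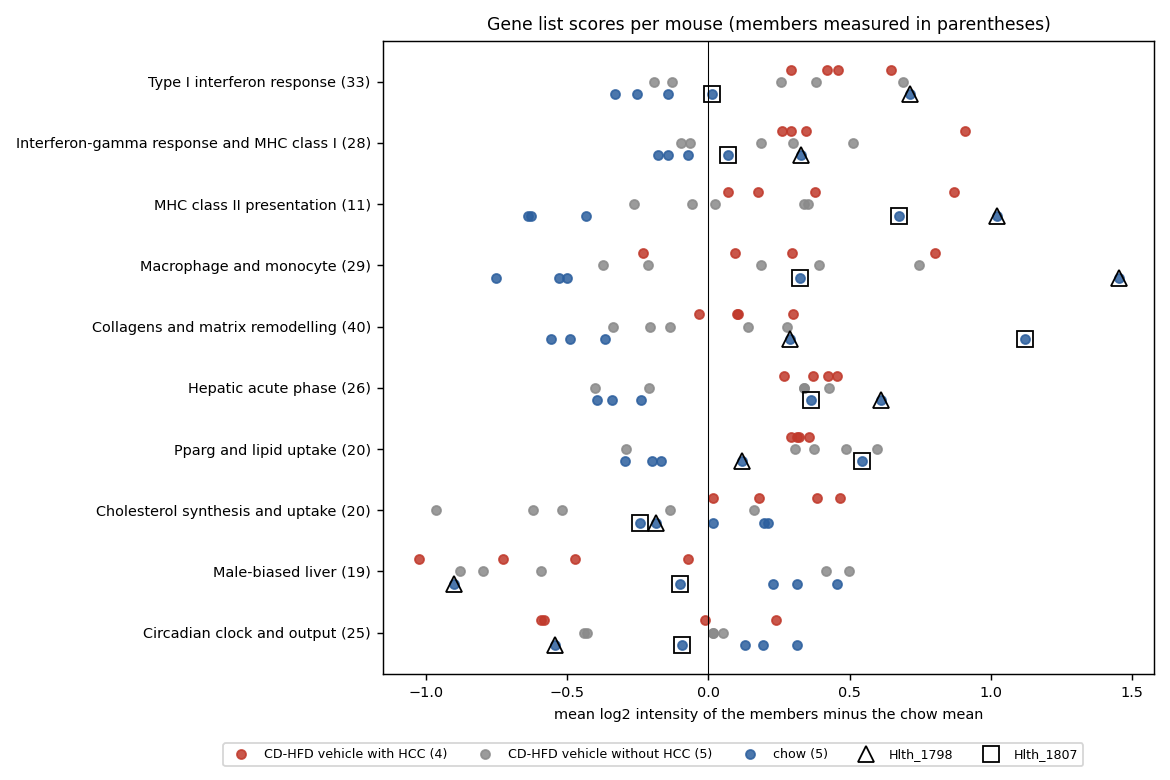
Score of 10 gene lists per mouse: the mean log2 intensity of the measured members minus the chow mean (x axis), by list (rows), in mice with HCC (red), mice on CD-HFD without HCC (grey) and chow mice (blue). Triangles mark chow mouse Hlth_1798 and squares chow mouse Hlth_1807. In the MHC class II list Hlth_1798 is at 1.02 and Hlth_1807 at 0.68, while the other 3 chow mice are at -0.64 to -0.43.

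The largest difference among brighter genes was in Cyp17a1, the steroid hydroxylase of androgen synthesis, present in mouse liver. It had 9.38, 10.40, 9.02 and 9.05 with HCC, against 6.77, 5.43, 6.25, 6.03 and 5.17 in chow mice. The groups lay far apart, yet the spread in the other groups was wide (SD 2.47 in mice without HCC) and the difference of 3.53 (SE 1.04) did not pass (adjusted p = 0.20). Cyp2b9 differed by 3.0, with 10.32, 10.22, 8.75 and 9.61 with HCC, against 9.52, 6.38, 6.48, 5.57 and 5.66 in chow mice. Of the other brighter genes with the largest differences, Adgrv1, an adhesion G protein-coupled receptor, differed by 2.47, Ifi27l2b by 1.95, Rad51b, a homologous recombination gene, by 1.71 and the annexin Anxa2 by 1.66, none past the threshold. Without Hlth_1798 and Hlth_1807 all 4 passed, Adgrv1 at 3.52 (adjusted p = 0.019), Ifi27l2b at 3.29 (adjusted p = 0.0067), Rad51b at 3.18 (adjusted p = 0.0094) and Anxa2 at 3.15 (adjusted p = 0.0036). Anxa2 was at 9.74 to 10.31 with HCC, against 10.78 and 10.62 in chow mice Hlth_1798 and Hlth_1807 and 6.46 to 7.24 in the other 3. Cyp17a1 and Cyp2b9 are female-biased in normal mouse liver. Of 27 female-biased genes 3 were higher (4.45% of all genes) and 1 lower (4.82%) at an unadjusted p under 0.05. Of 19 male-biased genes none was higher and 4 were lower, with 2 above 0 and a median of -0.33, or -0.54 without Hlth_1798 and Hlth_1807. Sex is not in the labels, and its part in these values was not tested.

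Of 27 measured drug-metabolising cytochromes, 2 were higher and 6 lower at an unadjusted p under 0.05 (4.45% and 4.82% of all genes), with none past the threshold and a median of -0.14. Without chow mice Hlth_1798 and Hlth_1807, 1 passed higher (2.12%) and 5 lower (2.13%), and the median was -0.23. Cyp1a2, a pericentral enzyme that oxidises caffeine, had 11.19, 10.09, 11.17 and 10.66 with HCC, against 11.72, 11.90, 11.75, 11.96 and 11.34 in chow mice, with no overlap (difference -0.96, SE 0.24, adjusted p = 0.12, and 0.022 without both). Cyp3a11, an abundant pregnane X receptor target, differed by -0.22 (adjusted p = 0.14, and 0.012 without both). Cyp2b10, induced through the receptor CAR, was at 4.13 to 4.70 with HCC, against 4.31, 6.98, 7.17, 5.24 and 4.23 in chow mice, where only 3 mice were above the dim range. Its difference was -1.22 (adjusted p = 0.25), and -2.10 (adjusted p = 0.00022) without Hlth_1798 and Hlth_1807, which were in the dim range. Cyp2j6 was 0.48 higher (adjusted p = 0.18, and 0.031 without both). Gsta4, which conjugates the lipid peroxidation product hydroxynonenal, had 10.61, 9.96, 10.01 and 10.25 with HCC, against 11.52, 11.16, 11.06, 10.83 and 10.61 in chow mice. The acetyltransferase paralogs Nat8 and Nat8f5 differed by -1.73 and -1.83 (adjusted p = 0.28 and 0.11), and both passed without Hlth_1798 and Hlth_1807, at -2.30 and -2.42. Plekhb1 differed by -1.32, with no overlap (adjusted p = 0.15, and 0.012 without both), and Avpr1a, a vasopressin receptor, by -1.33.

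Clock genes separated the mice with HCC among themselves. Of 25 measured clock and output genes, 1 was higher (4.45% of all genes) and 5 lower (4.82%) at an unadjusted p under 0.05, with Cry1 and Lonrf3 past the threshold (0.0702% of all genes were lower past it). The output factor Dbp had 4.60, 4.37, 10.00 and 10.20 with HCC, against 4.74, 6.04, 5.45, 6.19 and 4.63 in chow mice. Mice Veh_high_1831 and Veh_high_2088 were far above all others, while Veh_high_798 and Veh_high_1770 lay in the dim range, as did chow mice Hlth_1798 and Hlth_1807. The core activator Arntl was ordered the other way, at 6.82, 6.98, 4.31 and 4.43 with HCC, against 5.97 to 7.10 in chow mice. Usp2, a clock-controlled protease, was at 4.26, 4.67, 8.91 and 8.40 with HCC, against 5.59, 9.10, 8.99, 9.28 and 7.45 in chow mice. Arntl and Usp2 were chosen after their values were seen.

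Nr1d2, the repressor REV-ERB beta, had 9.36, 9.02, 10.61 and 10.38 with HCC, against 6.79, 9.48, 9.0, 9.49 and 8.63 in chow mice. The difference of 1.17 (adjusted p = 0.30) was 0.52 without chow mice Hlth_1798 and Hlth_1807 and also 0.52 without mice Veh_high_1831 and Veh_high_2088. Rora, the receptor that opposes REV-ERB, differed by -0.32 (adjusted p = 0.22). Rgs16, a regulator of G protein signalling with a daily rhythm in liver, had 7.31, 8.89, 10.12 and 10.31 with HCC, against 6.59, 5.57, 5.22, 7.07 and 7.49 in chow mice. It too was highest in Veh_high_1831 and Veh_high_2088 (difference 2.77, adjusted p = 0.14, and 1.71 without both). It passed without chow mice Hlth_1798 and Hlth_1807, at 3.20 (adjusted p = 0.029). Without mice Veh_high_1831 and Veh_high_2088 with HCC, Cry1 differed by -1.75 and Lonrf3 by -0.86, and neither passed. The hour of tissue collection is not in the labels, and its part in these values was not tested.

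**Figure D5:**
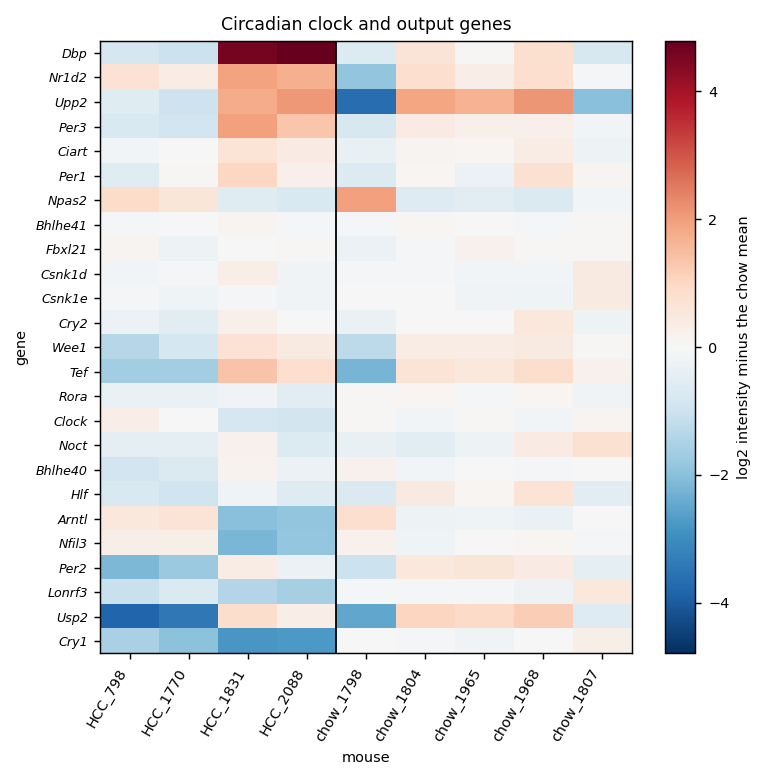
The 25 clock and output genes (rows, ordered by difference) in each mouse (columns, mice with HCC at the left of the line, chow mice at the right). Colour is log2 intensity minus the chow mean. Mice Veh_high_1831 and Veh_high_2088 have high Dbp (10.00 and 10.20) and low Arntl (4.31 and 4.43), while Cry1 is low in all 4 mice with HCC.

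Of 37 genes of TGF-beta and BMP signalling, none was higher (4.45% of all genes) and 5 were lower (4.82%) at an unadjusted p under 0.05, 14 lay above 0 and none passed. The median was -0.04, and 0.03 without Hlth_1798 and Hlth_1807. Id1, an inhibitor of helix-loop-helix factors, had 6.18, 6.23, 5.96 and 6.79 with HCC, against 8.12, 7.53, 7.18, 6.28 and 7.28 in chow mice, and only chow mouse Hlth_1968 lay inside the HCC range (difference -0.99, adjusted p = 0.54). Id3 differed by -0.75 (adjusted p = 0.22). Against mice on the diet without HCC both passed, Id1 at -2.66 (adjusted p = 0.019) and Id3 at -1.27 (adjusted p = 0.0195). Hamp, which encodes the iron hormone hepcidin, had 11.56, 11.08, 12.17 and 11.94 with HCC, against 12.34, 12.86, 12.79, 12.63 and 10.92 in chow mice. Chow mouse Hlth_1807 was the lowest of the 9, and the difference of -0.62 (adjusted p = 0.48) was -1.07 (adjusted p = 0.0033) without Hlth_1798 and Hlth_1807.

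Other metabolic genes gave single differences. Cbs, the first enzyme of transsulfuration, had 10.39, 10.17, 10.45 and 10.39 with HCC, against 9.87, 9.65, 9.65, 9.82 and 9.19 in chow mice, with no overlap (0.71, adjusted p = 0.12). Igfbp3, a carrier of insulin-like growth factors, was higher by 1.41 (adjusted p = 0.10), with chow mouse Hlth_1807 at 7.84 and the other 4 chow mice at 5.60 to 5.99. Without Hlth_1798 and Hlth_1807 it was 1.88 (adjusted p = 0.0006). Hsd3b7, a bile acid synthesis enzyme, differed by 0.32 and the endothelial diaphragm gene Plvap by 0.68, both without overlap (adjusted p = 0.16 for Hsd3b7 and 0.17 for Plvap, and 0.016 and 0.023 without both chow mice). Of 50 cell cycle genes 1 was higher and 2 lower at an unadjusted p under 0.05, at or below the shares of all genes (4.45% and 4.82%), with a median of 0.01. No member of the lists for B cells, platelets, coagulation, immediate early genes or ER stress was at an unadjusted p under 0.05 with all 9 mice. Robo1, from the oncofetal list, had 6.53 to 6.80 with HCC and 5.70 to 6.18 in chow mice (0.80, adjusted p = 0.26).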

How the data were processed

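RNA from 20 mg of non-tumoral liver was hybridised to Affymetrix HT MG-430 PM arrays (1 per mouse). The deposited values are linear intensity per probe set, which the authors made in ExpressionFileCreator by RMA with quantile normalization, as the series' design states (RMA also stands in the submitters' processing notes). The sources used here give no version. RMA compresses small fold changes near the lower end, and precision is limited by the number of arrays. The design text counts 4 vehicle mice, and the labels 9 on CD-HFD, not counting the chow mice. The labels were followed.

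Here log2 was taken, and 1 probe set per gene was kept, the brightest over all 30 arrays, among 28898 probe sets with 1 symbol (551 had several and 15588 none), which gave 17097 genes. Symbols of 28689 matched RefSeq. Group means of all 5 groups were fitted with limma 3.58.1 in R 4.3.3 (25 residual and 2.37 prior degrees of freedom), with Benjamini-Hochberg adjustment over all genes and a threshold of 0.05. The fit was tested on simulated data.

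Gene lists (47), markers and named genes were chosen with earlier results of these data known. Named are all genes past the threshold, the 10 higher and 10 lower with the largest differences among brighter genes at an unadjusted p under 0.05, up to 4 members per list with the smallest p, markers, and Kitl, Lad1, Id1, Id3, Cry1 and Dbp; any other is marked in the text as picked from its values. No low-intensity filter was applied. Alternatives covered the mice fitted, probe set, filter, variance model, array weights, centring and mice left out. Promoters came from RefSeq (GRCm38.p6) and were searched on both strands, also for TTATGNAA and AGGTCA.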

Additional observations from a re-analysis of the deposited data

Results flagged for a closer look

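The named genes were tested for a single mouse far from the rest of its group, where chance gives about 1 in 20. Some were named after their values were seen, and all rest on the same mice. The share that stood out is therefore not independent of that choice, and nothing is read from it. Of 170 gene and group combinations, 18 stood out. In chow mouse Hlth_1798 these were Fads1 at 10.98 (other chow mice 11.47 to 11.59), Elovl3 at 10.78 (11.41 to 11.63), Acot2 at 5.64 (8.37 to 9.29), Tef, a clock output factor chosen after its values were seen, at 6.82 (9.25 to 9.91), Ifih1 at 8.05 (7.13 to 7.34), Cyp2b9 at 9.52 (5.57 to 6.48), Afp at 5.08 (4.64 to 4.76) and Plvap at 8.04 (7.36 to 7.53). In chow mouse Hlth_1807 they were Lonrf3 at 7.35 (6.61 to 6.82), Hamp at 10.92 (12.34 to 12.86), Igfbp3 at 7.84 (5.60 to 5.99), Epcam at 8.11 (4.73 to 4.95), S100a8 at 8.75 (4.37 to 5.41) and Krt19 at 6.03 (4.23 to 4.47).

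Among the mice with HCC, Mogat1 was at 6.68 in Veh_high_1831 (others 5.68 to 5.84), Nat8f5 at 8.27 in Veh_high_1831 (6.55 to 6.78), Colec11 at 7.88 in Veh_high_1831 (8.49 to 8.59) and Saa1 at 11.31 in Veh_high_1770 (11.81 to 11.90).

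For 6 of the named genes the difference from chow itself differed between mice with HCC and mice without HCC on the same diet. In limma's test of that difference, 15 of all 17097 genes (0.0877%) passed an adjusted p under 0.05. The 6 were Ncbp2 by -0.50, Cry1 by -2.18, Lonrf3 by -1.42, Ahctf1 by -0.99, Id1 by -2.66 and Id3 by -1.27 on the log2 scale (adjusted p = 0.014 to 0.0195). Ncbp2, Cry1, Lonrf3 and Ahctf1 were past the threshold against chow in the same mice with HCC. Id1 and Id3 were named by earlier results of these data, so nothing is read from the count.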

How the results depend on the processing

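Against 17 genes past the threshold, the count was 1 when only the 9 mice of both groups were fitted, 9 with the probe set of largest variance, 34 among genes at or above the median gene mean, 668 with array weights, 727 without chow mice Hlth_1798 and Hlth_1807 together and 0 without mice Veh_high_1831 and Veh_high_2088 with HCC together (limma; 1293 genes at an unadjusted p under 0.05). Leaving out 1 mouse at a time gave 1 to 110 genes. It was 13 with the mean of all probe sets, 22 with a variance trend and 24 with 75th percentile centring. The count at an unadjusted p under 0.05, 1584, was 2996 with array weights and 2878 without both chow mice, and 1105 to 2008 (1274 to 2008 with 1 mouse left out) under the other settings. The array weights were 0.38 for chow mouse Hlth_1798 and 0.34 for Hlth_1807. Kitl kept its call in 16 of 18 settings, Cry1 in 14 and Ncbp2 in 12, and no gene past the threshold changed sign. Over 85 named genes, 1278 of 1525 values kept their side of the threshold, 137 lost it and 110 gained it. Of 845 list medians, 5 moved by more than the SD of the list score among the 5 chow mice. Chow mice Hlth_1798 and Hlth_1807 widen that SD, which was 0.91 for macrophage genes. Their median, 0.25 and 0.90 without both, thus counted as unmoved, and the 5 say little about stability. No paired analysis was possible because the groups share no animal numbers. The cause of these changes was not tested. Genes near the lower end of the intensity range carry mostly background, which limits what their differences can show.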
